A study of Mus musculus with 6 samples.

Results

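Mediator, Integrator and RNA polymerase II are large assemblies that act together at the start of protein-coding genes, and their subunit genes were followed here on arrays of embryonic mouse cortical cells. The members were chosen by symbol, with phenobarbital against control results of these arrays already known, so the counts below are descriptions and are set beside the share of all genes that passed. A gene was a member if the accession of a probe led to a symbol made of Med, Ints or Polr2 and a subunit number or letter. This gave 54 genes with 74 probes, of 20145 named genes with 26582 probes. Mediator held 29 genes with 44 probes, Integrator 14 genes with 15 probes, and RNA polymerase II 11 genes with 15 probes. Ints6l and Medag carry similar symbols and were left out. Med6, Polr2a and Polr2d had no probe whose accession stood in the gene table used for naming, so the largest polymerase subunit, the product of Polr2a, was not analysed here.

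The phenobarbital group was made of cortical cells of C57BL/6N embryos whose mothers were injected with 80 mg/kg of phenobarbital, a barbiturate sedative that strengthens the response of GABA-A receptors. The injections were given in pairs 6 h apart on embryonic days 10 to 11. The control group was made in the same way from embryos of dams injected with saline. In both groups the neocortex of embryonic day 12 (E12.5 in the sample labels) was dissociated and plated, and RNA was taken 4 h later from what the labels call neural progenitor cells. There were 3 one-colour Agilent arrays per group. Whether replicates of a group were separate litters or cultures is not in the labels, so the p-values cover the spread among these arrays, and that spread may be technical.

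Mediator carries signals from DNA-bound transcription factors to RNA polymerase II. Its head and middle modules contact the polymerase, its tail meets many activators, MED14 runs through the core as a scaffold, and a detachable kinase module of MED12, MED13 (or their paralogues), cyclin C and CDK8 or CDK19 binds the core reversibly. Integrator cuts nascent RNA with a nuclease made of INTS11 and INTS9, held by INTS4, and also brings a protein phosphatase 2A to the polymerase. It processes small nuclear RNAs and ends transcription early at many protein-coding genes. RNA polymerase II itself is a multi-subunit enzyme, some of whose small subunits also belong to polymerases I and III.

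Values are log2 of the processed spot signal minus the 75th percentile of the same array, so a value of 0 lies at that percentile. Probes were kept where all arrays of 1 group or the other measured them well above background, and the brightest kept probe stands for its gene. Fold changes are phenobarbital minus control on this log2 scale. The test was limma's, with Benjamini-Hochberg adjustment over 25304 tested entries, 1 probe each, and "rose" and "fell" mean an adjusted p below 0.05. Of these entries 15181 carry a gene symbol and the others the name in the file, and "all genes" below means all of them. Levels are not compared between genes, because probes differ in brightness.

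The arrays differed in ways that touch every gene. Phenobarbital arrays were brighter, with a 75th percentile of 1803 to 1862, against 1116 to 1291 on control arrays. Slide 1 held all 3 phenobarbital arrays and control replicate 1, while control replicates 2 and 3 had slides 2 and 3 to themselves, and the scans followed the slides. Over all genes the log2 fold change had a median of -0.17. All 10 cortical progenitor markers examined, such as Pax6 and Sox2, were well above background on all 6 arrays. Their summed signal, in units of the 75th percentile, was 419.7 to 495 on phenobarbital arrays and 521 to 579 on control arrays. Such sums are weighted towards the brightest markers. Of the 10, Vim, the brightest, fell, Emx2 rose and 8 did not pass, with a median log2 fold change of -0.10. The 8 neuronal markers summed to 147 to 175 on phenobarbital arrays and 234 to 258 on control arrays, and 5 of them fell while 1 rose. The 7 choroid plexus markers tested summed to 13.0 to 24.2 on phenobarbital arrays and 3.17 to 6.48 on control arrays, and 5 of them rose, with Kcne2 too dim to stand well above background on the control arrays. Sums of 8 markers each were also lower in phenobarbital arrays for erythroid cells (539 to 543, against 813 to 943 in controls), mural cells and meninges (30.8 to 37.1, against 54.7 to 59.5) and endothelium (42.3 to 49.2, against 70.4 to 81.7). Of the 8, 5 erythroid, 6 mural and meningeal and 4 endothelial markers fell, and none rose. The endothelial markers Pecam1 (0.70) and Tie1 (0.27) had positive log2 fold changes that did not pass. Sums of 8 microglial markers overlapped, at 9.57 to 12.1 in phenobarbital and 9.93 to 11.9 in control arrays, although 3 of them (Aif1, Mrc1 and Tyrobp) fell and 1 (C1qb) rose. Whether these shifts in other cell types had a part in the results on the subunit genes was not tested, and in such bulk samples fewer cells of a type and less RNA per cell cannot be told apart.

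Across the 3 complexes most subunit genes did not pass the test. Of the 52 members tested, 3 rose (Ints4, Med10 and Med13l), 3 fell (Med16, Med7 and Polr2k) and 46 did not pass. Over all genes 6.24% rose and 11.0% fell. The phenobarbital and control arrays did not overlap for 30 of the 52 members, 6 of them higher and 24 lower in phenobarbital, against 44.5% of all genes, 11.6% higher and 32.9% lower. For 46 of the 52 the log2 fold change lay within 0.5 of the all-gene median, as it did for 79.4% of all genes. Ints6 and Med12l were not tested, since their probes did not clear the background of a single control array. The Ints6 probe passed on phenobarbital replicate 3 alone, and the Med12l probe on phenobarbital replicates 2 and 3.

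**Figure D1:**
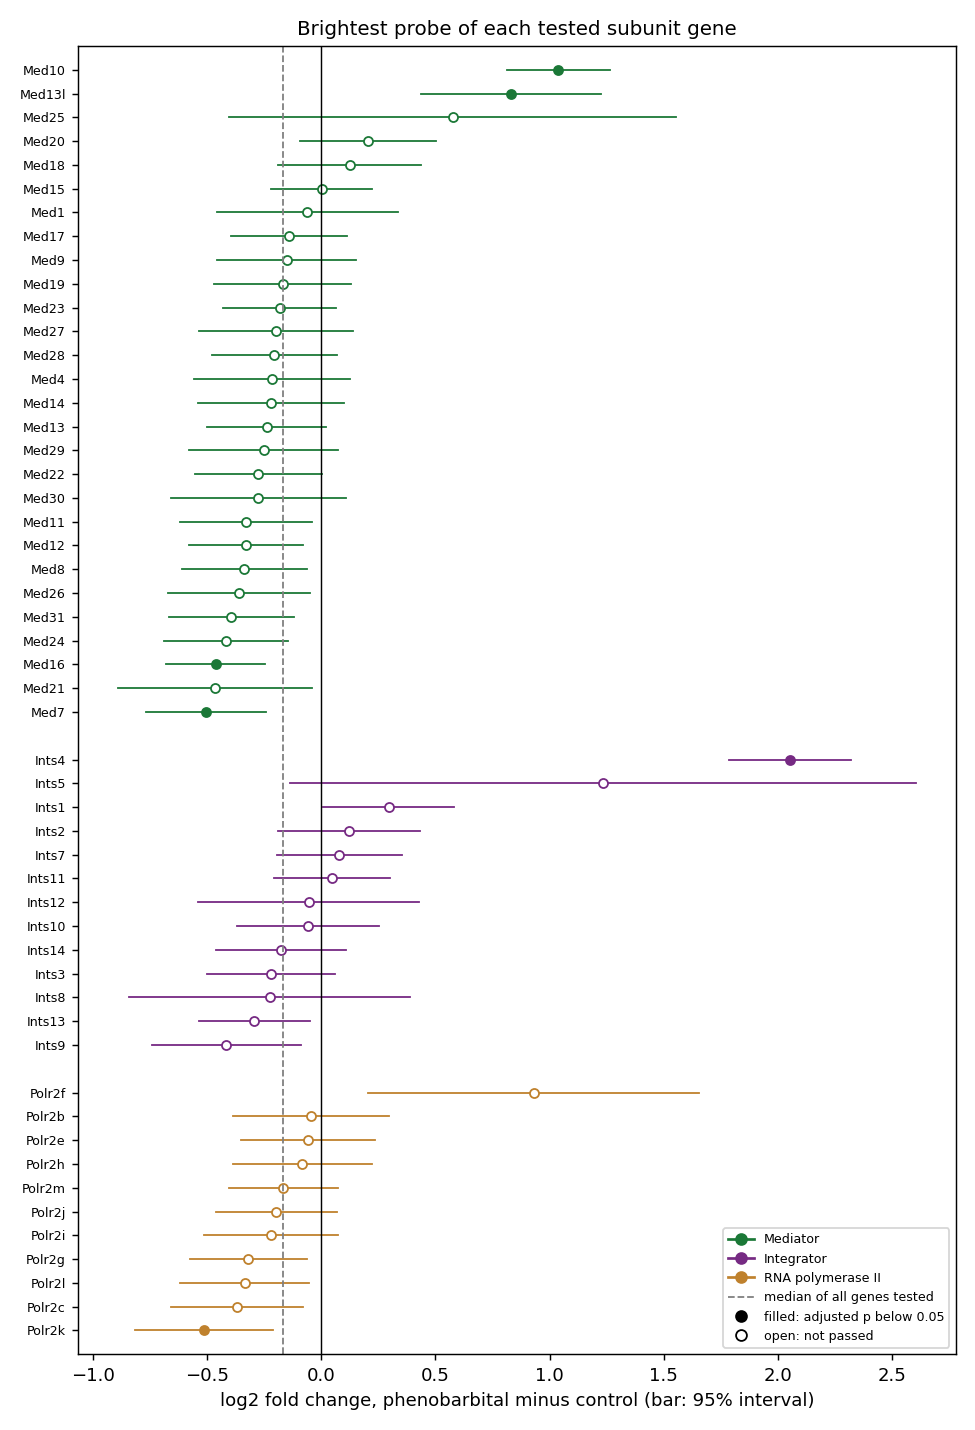
Log2 fold change of the brightest probe (x axis, phenobarbital minus control, bar: 95% interval) of the 52 tested subunit genes, grouped by complex, with the all-gene median of -0.17 as a dashed line. Filled points passed the adjusted p threshold of 0.05; Ints4 lies farthest out at 2.05, and the wide bars of Ints5, Polr2f and Med25 stand beside control arrays that disagreed.

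Reference promoter sequences are shown for those members that passed the test and that the RefSeq promoter table (GRCm38.p6) holds. Each run covers 75 bases before to 25 bases after an annotated start, 5′ to 3′ on the gene's strand, with capitals marking any match to 1 of 6 short motifs on either strand.
Ints4, chr7:97480881-97480980, plus strand: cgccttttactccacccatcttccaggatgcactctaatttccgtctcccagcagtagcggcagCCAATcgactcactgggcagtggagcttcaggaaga
Med10, the second of 2 starts, chr13:69809807-69809906, plus strand: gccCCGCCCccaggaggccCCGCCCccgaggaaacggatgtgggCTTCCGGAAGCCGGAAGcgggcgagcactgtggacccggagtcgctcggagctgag
Med13l, chr5:118560644-118560743, plus strand: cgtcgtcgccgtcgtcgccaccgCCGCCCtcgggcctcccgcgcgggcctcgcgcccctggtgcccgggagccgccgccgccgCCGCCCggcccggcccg
Med7, the first of 2 starts, chr11:46436872-46436971, plus strand: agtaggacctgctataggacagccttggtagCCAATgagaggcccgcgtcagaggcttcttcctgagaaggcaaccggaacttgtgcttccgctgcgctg
Med16, chr10:79908914-79909013, minus strand: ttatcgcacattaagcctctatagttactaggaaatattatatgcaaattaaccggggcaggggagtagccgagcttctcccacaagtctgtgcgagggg

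The motifs, all searched on both strands, were the CCAAT box (CCAAT), the GC box (GGGCGG), the TATA box (TATAAA), an ETS site (CCGGAAG), an NRF1 site (CGCATGCGC) and a YY1 site (AAGATGGC). In these windows Ints4 and Med7 held a CCAAT box, Med13l held 2 GC boxes, and Med10 held 2 GC boxes and overlapping ETS letters. The Med16 window held none of the 6. The other Med10 start held none of the 6, and the start shown was picked with these matches known. Both Med7 starts held the same CCAAT letters. Over the table's full windows, 250 bases before to 50 after each start, the first Med7 start and the Med16 start both held TATA letters. Of all members, 44 of the 54 had an entry. GC box letters stood in 68.2% of these members and in 38.2% of all 27025 genes of the table, and CCAAT letters in 47.7% and 41.1%. ETS letters stood in 27.3% of members and 9.93% of all genes, and NRF1 letters in 13.6% and 1.95%. YY1 letters stood in 2.27% of members and 3.19% of all genes, and TATA letters in 9.09% and 15.7%. The median GC content was 59.9% over members and 52.7% over all windows, so these shares are descriptions of windows that also differ in base composition.

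In Mediator, Med10 and Med13l rose, Med7 and Med16 fell, and 24 of the 28 tested genes did not pass. Over all genes 6.24% rose and 11.0% fell. The median log2 fold change was -0.22, with a range of -0.50 to 1.04, and 22 of the 28 values were below 0, against 68.4% of all genes. The arrays did not overlap for 16 genes, 2 higher and 14 lower in phenobarbital, against 11.6% and 32.9% of all genes.

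The middle module held the Mediator gene with the highest fold change and the one with the lowest. Med10, a small subunit of the middle module, had 2.61, 2.62 and 2.71 in phenobarbital replicates 1 to 3, against 1.57, 1.64 and 1.61 in control replicates 1 to 3. Every phenobarbital array lay about 1 unit above every control array. The log2 fold change was 1.04 ± 0.09 (SE; adjusted p = 0.0034 by limma, higher in 3 of 3 phenobarbital arrays than in all controls, n = 3 each), a 2.05-fold difference with a 95% interval of 1.76 to 2.40. Against control replicate 1 alone, the only control on the slide of the phenobarbital arrays, it was 1.07. With slide as a block the fit reduces to this contrast with 1 control array, whose own spread is not measured, so such values are given here without a test.

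Med7, whose product pairs with that of Med21 in the hinge of the yeast middle module, had 2.58, 2.71 and 2.55 in phenobarbital replicates 1 to 3, against 3.05, 3.24 and 3.06 in control replicates 1 to 3. The groups did not overlap. Its log2 fold change was -0.50 ± 0.11 (SE; adjusted p = 0.0305 by limma, n = 3 each). It passed without control replicate 2 but not without any 1 of the other 5 arrays, where the adjusted p reached 0.104. Its dimmer probe gave -0.23, which did not pass (adjusted p = 0.153 in limma over every probe). Med21 itself averaged 1.91 ± 0.32 in phenobarbital and 2.37 ± 0.09 in control arrays (SD, n = 3 each), a log2 difference of -0.47 that did not pass (adjusted p = 0.112 by limma). Phenobarbital replicate 3, at 1.54, lay more than 0.5 below the other two. The other middle genes tested, Med1, Med4, Med9, Med19, Med26 and Med31, did not pass, with values between -0.39 and -0.06.

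None of the 6 head genes tested, Med8, Med11, Med17, Med18, Med20 and Med22, passed, and their log2 fold changes ran from -0.34 to 0.21. Med20 was the highest of them. The scaffold gene Med14 had 1.95, 1.90 and 1.63 in phenobarbital and 2.09, 1.90 and 2.15 in control replicates 1 to 3. These values overlapped, and the log2 fold change of -0.22 ± 0.13 (SE) did not pass (adjusted p = 0.274 by limma, n = 3 each). The genes of the subunits that link head and tail, Med27, Med28, Med29 and Med30, gave -0.28 to -0.20 on their brightest probes, and none passed.

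In the tail, Med16 fell. Its brightest probe had 8.05, 8.05 and 8.10 in phenobarbital replicates 1 to 3, against 8.50, 8.54 and 8.54 in control replicates 1 to 3. The arrays of a group lay within 0.05 of each other and the groups did not overlap. It fell by 0.46 ± 0.09 (SE; adjusted p = 0.0242 by limma, n = 3 each). The brightest probe lay 8.05 to 8.54 units above the 75th percentile. That percentile was 1803 to 1862 on phenobarbital arrays and 1116 to 1291 on control arrays. Whether a signal so far up the range was compressed was not tested. The second Med16 probe gave -0.42, close to the brightest, with an adjusted p of 0.0628 over every probe in limma. The value depended on scaling, at -0.02 (adjusted p = 0.92 by limma) after quantile normalization, which moved the median of all genes to -0.07. Without control replicate 2 it still passed, and without any 1 of the other 5 arrays it did not, with an adjusted p of up to 0.0921. Med24 had -0.42 on its brightest probe, just outside the threshold (adjusted p = 0.0514 by limma), and Med15 and Med23 gave 0.00 and -0.18.

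Med25, whose product binds activators, gave 0.58 ± 0.41 (SE), the third highest value in Mediator, and did not pass (adjusted p = 0.347 by limma, n = 3 each). It had 3.18, 3.46 and 3.12 in phenobarbital replicates 1 to 3, against 3.12, 1.69 and 3.21 in control replicates 1 to 3. Control replicate 2 alone was low. Without that array the difference was 0.08.

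In the kinase module 1 of 3 tested genes rose and none fell, where 6.24% of all genes rose and 11.0% fell. Med13l, a paralogue of Med13 that is linked to a human developmental disorder, had -2.04, -2.15 and -2.13 in phenobarbital replicates 1 to 3, against -2.72, -3.28 and -2.81 in control replicates 1 to 3. All phenobarbital arrays lay above all controls, with control replicate 2 the lowest. It rose by 0.83 ± 0.16 (SE; adjusted p = 0.0251 by limma, n = 3 each). It was 0.66 (adjusted p = 0.0155) without control replicate 2, and did not pass without any 1 of the other 5 arrays (adjusted p up to 0.0860). Against control replicate 1 alone it was 0.62.

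Med13 itself had -3.47, -3.33 and -3.37 in phenobarbital and -3.07, -3.28 and -3.10 in control replicates 1 to 3. The groups did not overlap, with phenobarbital lower, but the log2 fold change of -0.24 ± 0.11 (SE) did not pass (adjusted p = 0.162 by limma, n = 3 each). Med12, which activates the kinase, had 2.54, 2.58 and 2.38 in phenobarbital and 2.83, 2.89 and 2.78 in control replicates 1 to 3. These did not overlap either, and the log2 fold change of -0.33 did not pass (adjusted p = 0.0719 by limma). Of the 3 genes for the kinase itself and its cyclin, Cdk8, Cdk19 and Ccnc, none rose and Ccnc, which encodes cyclin C, fell by 0.47 (adjusted p = 0.0416 by limma), while its other probe gave 0.02. Ccnc did not pass when any 1 of the 6 arrays was left out. Over all genes 6.24% rose and 11.0% fell.

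**Figure D2:**
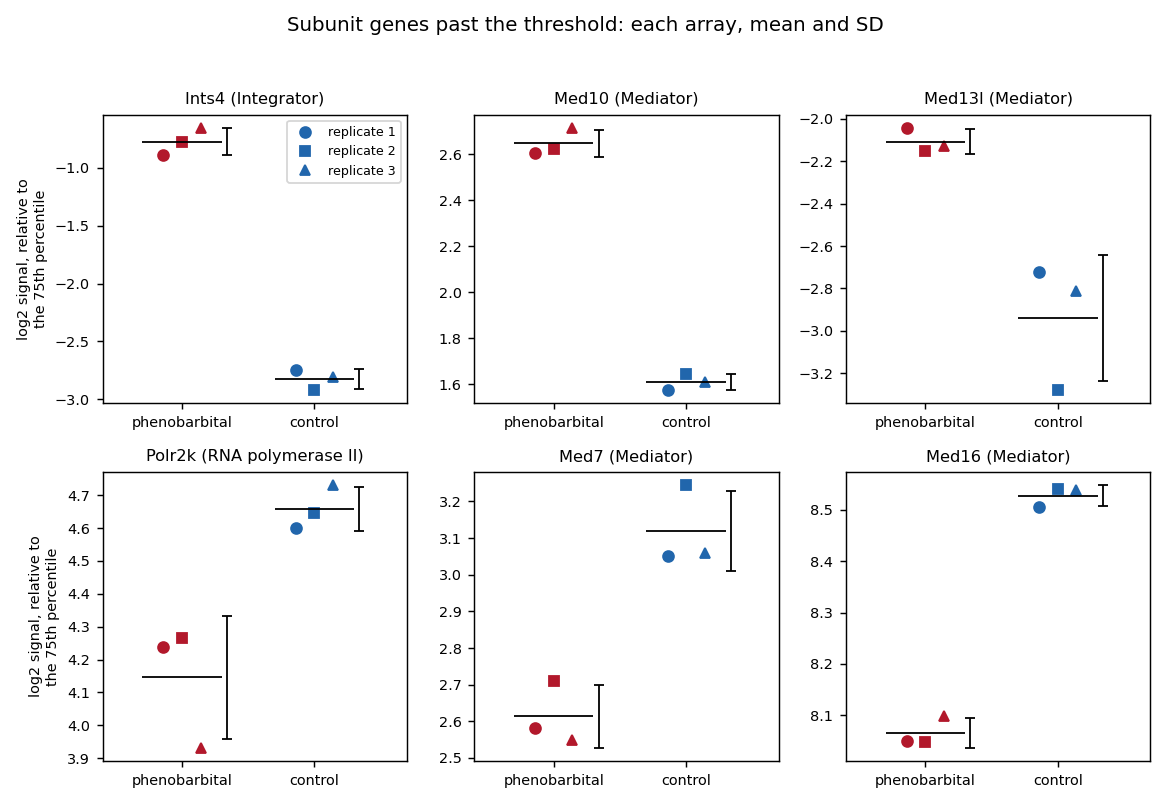
Log2 signal relative to the array's 75th percentile (y axis) for each array of the 6 genes that passed, phenobarbital left and control right. Symbols are replicates, lines are means and bars are SD (n = 3); the groups do not overlap in any panel, and control replicate 2 is the lowest array for Med13l.

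In Integrator, 12 of 13 tested genes did not pass, 1 rose and none fell. Over all genes 6.24% rose and 11.0% fell. The median log2 fold change was -0.06, nearer to 0 than that of all genes, and 0.04 when arrays were scaled to the 75th percentile over probes above background. The range ran from -0.42 to 2.05. The arrays did not overlap for 6 of the 13 genes, against 44.5% of all genes. Of the 6, 3 were higher and 3 lower in phenobarbital, where 11.6% of all genes were higher and 32.9% lower in this way.

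Ints4 had the highest fold change of all members. INTS4 is the scaffold of the cleavage module. The gene had -0.89, -0.78 and -0.65 in phenobarbital replicates 1 to 3, against -2.75, -2.92 and -2.81 in control replicates 1 to 3. The groups lay more than 1.5 units apart, with little spread within either. The log2 fold change was 2.05 ± 0.11 (SE; adjusted p = 0.0020 by limma, higher in 3 of 3 phenobarbital arrays, n = 3 each), a 4.15-fold difference with a 95% interval of 3.45 to 4.99. The single Ints4 probe was printed 10 times on each array. After outlier spots were left out, the spots of 1 array had an SD of 0.03 to 0.05 on phenobarbital arrays and 0.10 to 0.11 on control arrays. No spot on a phenobarbital array was as low as the highest on a control array, at processed signals of 941 to 1183 in phenobarbital and 131 to 212 in control arrays. Against control replicate 1 alone the difference was 1.98. All of these spots carry 1 probe sequence, so they are no check by a second probe.

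The other 2 genes of the cleavage module did not pass. Ints11, the nuclease, had 2.90, 2.89 and 2.76 in phenobarbital and 2.75, 2.75 and 2.92 in control replicates 1 to 3, which overlap. Its log2 fold change was 0.05 ± 0.11 (SE; adjusted p = 0.78 by limma), and its second probe gave -0.08. Ints9, its partner, had -0.42 ± 0.14 (SE), the lowest value in Integrator (adjusted p = 0.0795 by limma, n = 3 each). The groups for Ints9 did not overlap, at 3.74, 3.78 and 3.75 in phenobarbital and 4.12, 4.42 and 3.98 in control replicates 1 to 3. So the 3 genes of this module gave 3 different values, of which 1 passed.

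Ints5 had the second highest value, 1.23 ± 0.57 (SE), and did not pass (adjusted p = 0.171 by limma, n = 3 each). It had -0.92, -0.90 and -1.17 in phenobarbital replicates 1 to 3, against -1.52, -3.65 and -1.52 in control replicates 1 to 3. Control replicate 2 stood about 2 units below the other controls. Without that array the difference was 0.53 and passed (adjusted p = 0.0407 by limma).

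Ints13, at -0.29, had the second lowest value and did not pass (adjusted p = 0.0922 by limma). Ints1 at 0.30 was higher on every phenobarbital array than on every control and did not pass (adjusted p = 0.128 by limma). The remaining genes, Ints2, Ints3, Ints7, Ints8, Ints10, Ints12 and Ints14, lay between -0.23 and 0.12.

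Among the 6 Integrator partner genes 1 rose and 1 fell, where 6.24% of all genes rose and 11.0% fell. Ppp2r1a, the scaffold subunit of protein phosphatase 2A, rose by 1.53 ± 0.13 (SE; adjusted p = 0.0033 by limma), with 2.25, 2.33 and 2.64 in phenobarbital and 0.94, 0.77 and 0.92 in control replicates 1 to 3. Ints6l, a paralogue of Ints6, fell by 0.91 ± 0.09 (SE; adjusted p = 0.0046 by limma), with 1.20, 1.27 and 1.31 in phenobarbital and 2.21, 2.18 and 2.13 in control replicates 1 to 3. Neither gene's groups overlapped. The catalytic subunit gene Ppp2ca gave -0.31 and did not pass (adjusted p = 0.0615 by limma).

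In RNA polymerase II, 1 of 11 tested genes fell, none rose and 10 did not pass, where 11.0% of all genes fell and 6.24% rose. The median was -0.20, and 10 of the 11 values were below 0, against 68.4% of all genes, but the median was 0.03 after quantile normalization. The arrays did not overlap for 8 genes, 7 of them lower in phenobarbital, where 32.9% of all genes were lower in this way.

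Polr2k, a small zinc-binding subunit shared by all 3 polymerases, had 4.24, 4.27 and 3.93 in phenobarbital replicates 1 to 3, against 4.60, 4.65 and 4.73 in control replicates 1 to 3. Phenobarbital replicate 3 was the lowest, and the groups did not overlap. It fell by 0.51 ± 0.13 (SE; adjusted p = 0.0405 by limma, n = 3 each), and it did not pass when any 1 of the 6 arrays was left out (adjusted p 0.0545 to 0.108). The promoter table holds no entry for it.

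Polr2f, also shared by the 3 polymerases, had 3.17, 3.18 and 2.90 in phenobarbital and 2.46, 1.45 and 2.55 in control replicates 1 to 3. All phenobarbital arrays were higher, and control replicate 2 was about 1 unit below the other controls. The log2 fold change of 0.93 ± 0.30 (SE), the highest in the enzyme, did not pass (adjusted p = 0.0779 by limma). Without control replicate 2 it was 0.58 and passed (adjusted p = 0.0363 by limma).

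The second-largest subunit, encoded by Polr2b, showed -0.05 and overlapping arrays. Polr2c and Polr2j, which encode the pair on which the enzyme assembles, gave -0.37 and -0.20, and Polr2g of the stalk gave -0.32. Polr2l, Polr2h and Polr2e, which are shared with the other polymerases, gave -0.34, -0.08 and -0.06 on their brightest probes. Polr2i gave -0.22 and Polr2m, an associated factor whose inhibition of the enzyme Mediator can overcome, -0.17. None of these 9 genes passed.

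Of 15 genes for subunits that belong to polymerases I or III alone or to both, 4 rose and none fell, with a median of 0.20. Over all genes 6.24% rose and 11.0% fell. Polr3a, which encodes the largest subunit of polymerase III, had 0.06, -0.08 and 0.29 in phenobarbital and -1.01, -0.66 and -1.16 in control replicates 1 to 3. It rose by 1.03 (adjusted p = 0.0163 by limma), Polr1b by 0.99 (adjusted p = 0.0096) and Polr3d by 0.69 (adjusted p = 0.0137). These 3 had phenobarbital arrays above all controls. The other probes of Polr1e (0.60) and Polr3gl (1.20) rose in limma over every probe, while their brightest probes, at 0.12 and -0.34, did not pass. With 1 array left out, 1 to 5 genes of the list passed, the fewest without control replicate 1.

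The factors that work beside the polymerase were mixed as well. Of 18 general transcription factor genes 3 rose, 15 did not pass and none fell on their brightest probes. Over all genes, for this list and those below, 6.24% rose and 11.0% fell. The 3 encode subunits of TFIIH, which opens DNA and phosphorylates the polymerase, while the other 7 TFIIH genes of the list, Gtf2h1, Gtf2h3, Gtf2h4, Gtf2h5, Ercc2, Ccnh and Mnat1, did not pass. They were the kinase gene Cdk7 at 0.94 (adjusted p = 0.0101), the helicase gene Ercc3 at 0.87 (adjusted p = 0.0326) and Gtf2h2 at 0.44 (adjusted p = 0.0336, all by limma). Their other probes gave 0.50 for Cdk7 and 0.89 for Gtf2h2. Of the 2 other Gtf2a2 probes, 1 fell in limma over every probe. Without control replicate 2, 4 genes of this list passed, and without any 1 of the other 5 arrays 0 to 2 did. Of 12 tested TFIID genes 3 fell, Taf13 at -0.54 (adjusted p = 0.0267), Taf9 at -0.44 (adjusted p = 0.0410) and Taf4 at -0.41 (adjusted p = 0.0414), and none rose. With 1 array left out, 4 TFIID genes passed without control replicate 2 and 0 without any 1 of the other 5 arrays. The other Taf7 probe, at -0.59, fell in limma over every probe. On their brightest probes none of the 22 pausing and elongation factor genes tested passed, with -0.29 for Ssrp1 and -0.25 for Supt5, the brightest of them. Other probes of Ctr9 (1.442) and Rtf1 (1.235) rose in limma over every probe. By limma 10 of the 22 had an unadjusted p below 0.05, and 1 passed without control replicate 2. Of 13 genes for polymerase assembly and for enzymes of its tail, 1 fell, the phosphatase gene Ctdsp1 at -0.44 (adjusted p = 0.0325 by limma), and none rose. Ctdsp1 passed without control replicate 2 but not without any 1 of the other arrays. Other probes of Gpn1 (1.315) and Rprd1b (0.90) rose in limma over every probe, and 1 of 2 other Ctdsp2 probes fell. Taf1 and Supt4a were not tested.

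Several genes had more than 1 probe, and these did not always give the same value. In Mediator 11 genes had several kept probes, in Integrator 1 and in RNA polymerase II 4, which made 20 pairs of a dimmer probe and the brightest probe of its gene. The 2 fold changes had the same sign in 10 pairs and opposite signs in 10. By complex the same sign was seen in 7 of 15 Mediator pairs, 0 of 1 Integrator pair and 3 of 4 polymerase pairs. The difference was tested with limma as dimmer minus brightest probe on each array, over 4780 such pairs of all genes. A factor equal for all probes of an array cancels from this difference, but a factor that varies with brightness does not. Whether such a factor had a part was not tested. Among the members 6 of 20 dimmer probes were higher relative to the brightest and none lower, against 21.4% and 3.41% over all pairs. The other 14 did not pass. The median difference was 0.27 over the members' pairs and 0.19 over all pairs. Over all pairs it was 0.14 with quantile normalization and 0.11 with normexp background correction.

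Polr2e showed the largest gap. Its dimmer probe had 2.34, 2.32 and 2.34 in phenobarbital replicates 1 to 3, against 0.65, -0.16 and 0.78 in control replicates 1 to 3, while the brightest had 4.84, 4.98 and 4.68 in phenobarbital and 4.87, 4.80 and 5.01 in control replicates 1 to 3. The dimmer probe separated the groups and the brightest did not. The dimmer probe gave a log2 fold change of 1.91 and rose (adjusted p = 0.0084 in limma over every probe), and the brightest gave -0.06. The difference was 1.97 ± 0.23 (SE; adjusted p = 0.0033 by limma).

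The dimmer probe of Med27 had 1.18, 1.05 and 0.93 in phenobarbital replicates 1 to 3, against -0.42, -1.38 and -0.21 in control replicates 1 to 3. It rose by 1.72 (adjusted p = 0.0191 in limma over every probe), against -0.20 for the brightest, a difference of 1.92 ± 0.24 (SE; adjusted p = 0.0039). The dimmer probe of Med29 had 0.86, 0.81 and 0.70 in phenobarbital and -0.39, -0.79 and -0.29 in control replicates 1 to 3. It rose by 1.28 (adjusted p = 0.0068), against -0.25 for the brightest, a difference of 1.53 ± 0.21 (SE; adjusted p = 0.0051). Neither dimmer probe overlapped between groups. With 1 array left out, the Med29 probe passed in all 6 cases, and the Med27 probe passed without control replicate 2 or 3 only, although its difference from the brightest passed in all 6. Both genes belong to the link between head and tail.

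Med24, Med28 and Med4 also had a dimmer probe higher than the brightest, by 1.64 ± 0.44 (adjusted p = 0.0426), 0.70 ± 0.12 (adjusted p = 0.0102) and 0.69 ± 0.18 (adjusted p = 0.0359, SE, all by limma). Their own fold changes of 1.23, 0.49 and 0.47 did not pass over every probe. The difference for Med4 did not pass without 5 of the 6 arrays in turn, and that for Med24 passed without control replicate 2 or 3 only.

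For other genes the probes were closer. The dimmer probes of Med1 (-0.41), Med12 (-0.39) and Med8 (-0.46) fell over every probe while the brightest, at -0.06, -0.33 and -0.34, did not pass, and none of the 3 differences between probes passed. These 3 dimmer probes did not pass when any 1 of the 6 arrays was left out. A further Med1 probe gave 0.30, of the opposite sign to the other 3 Med1 probes, and did not pass. A Med14 probe gave 0.34 with phenobarbital replicate 2 alone at -0.20, against -1.82 and -1.94 in replicates 1 and 3 and -1.75 to -1.57 in controls. Over every kept probe, 6 of 72 member probes rose and 6 fell, against 6.97% and 9.24% of all probes.

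**Figure D3:**
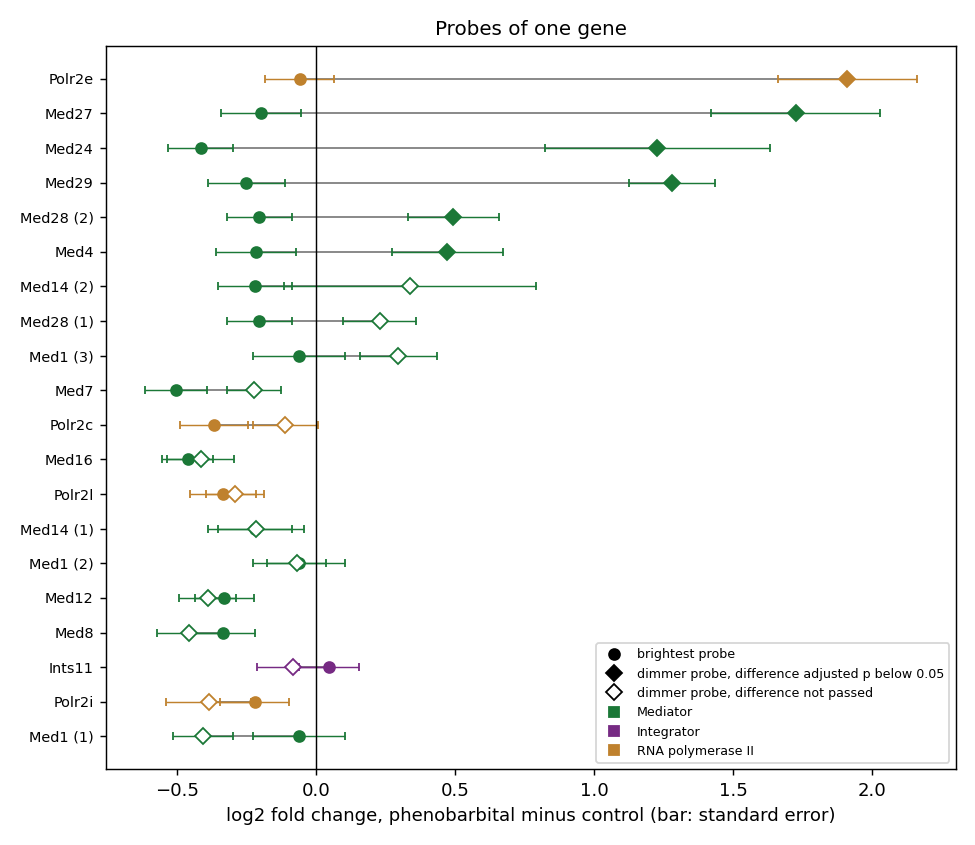
Log2 fold change (x axis, bar: SE) of the brightest probe (circle) and a dimmer probe (diamond) of one gene, joined by a line, for 20 pairs. Filled diamonds mark the 6 pairs whose difference passed, all with the dimmer probe to the right, from 0.69 for Med4 to 1.97 for Polr2e.

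Control replicate 2 lay more than 0.5 below both other controls at 6 of 72 member probes, 8.33%, against 7.73% of all kept probes, and above both at none, against 10.5%. The 6 were the probes of Ints5, Med25 and Polr2f and the dimmer probes of Med24, Med27 and Polr2e. All had a positive fold change, but a low control array raises phenobarbital minus control, so this sign was partly set by the choice of probes. Without control replicate 2 the dimmer probes gave 1.62 for Polr2e, 1.37 for Med27 and 0.73 for Med24, and each passed over every probe. Against control replicate 1 alone they gave 1.68, 1.48 and 0.82.

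**Figure D4:**
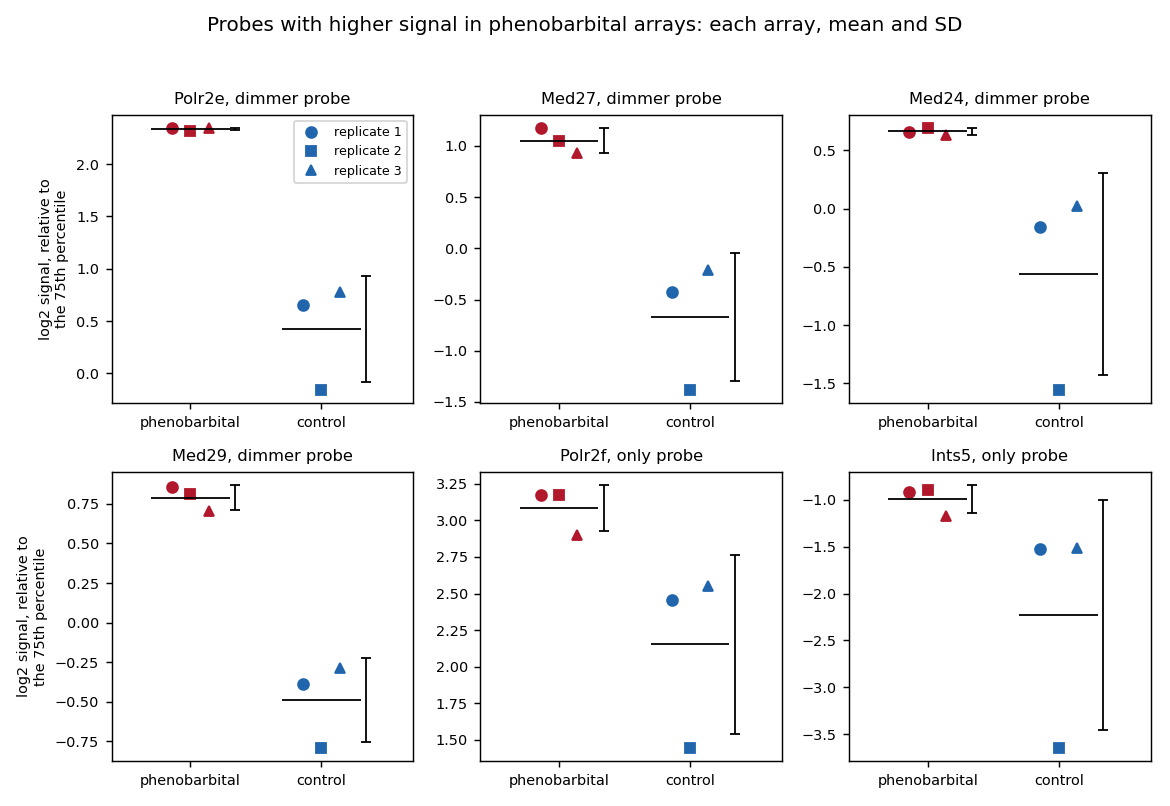
Log2 signal relative to the array's 75th percentile (y axis) on each array for 4 dimmer probes and the only probes of Polr2f and Ints5, phenobarbital left and control right. Lines are means and bars SD (n = 3); phenobarbital arrays lie above every control in each panel, and control replicate 2 is the lowest array in all 6.

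The 6 genes that passed did not depend equally on how the arrays were processed. Of the 22 other settings, the slide block leaves 1 control array and is not counted here. Under the rest, Ints4 passed each time and Med10 each time but with the replicate block. Med13l passed under 14, Med16 and Med7 under 11 each and Polr2k under 9. The 3 genes that fell did not pass under any of the 3 other scalings between arrays, while the 3 that rose passed under each of them.

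**Figure D5:**
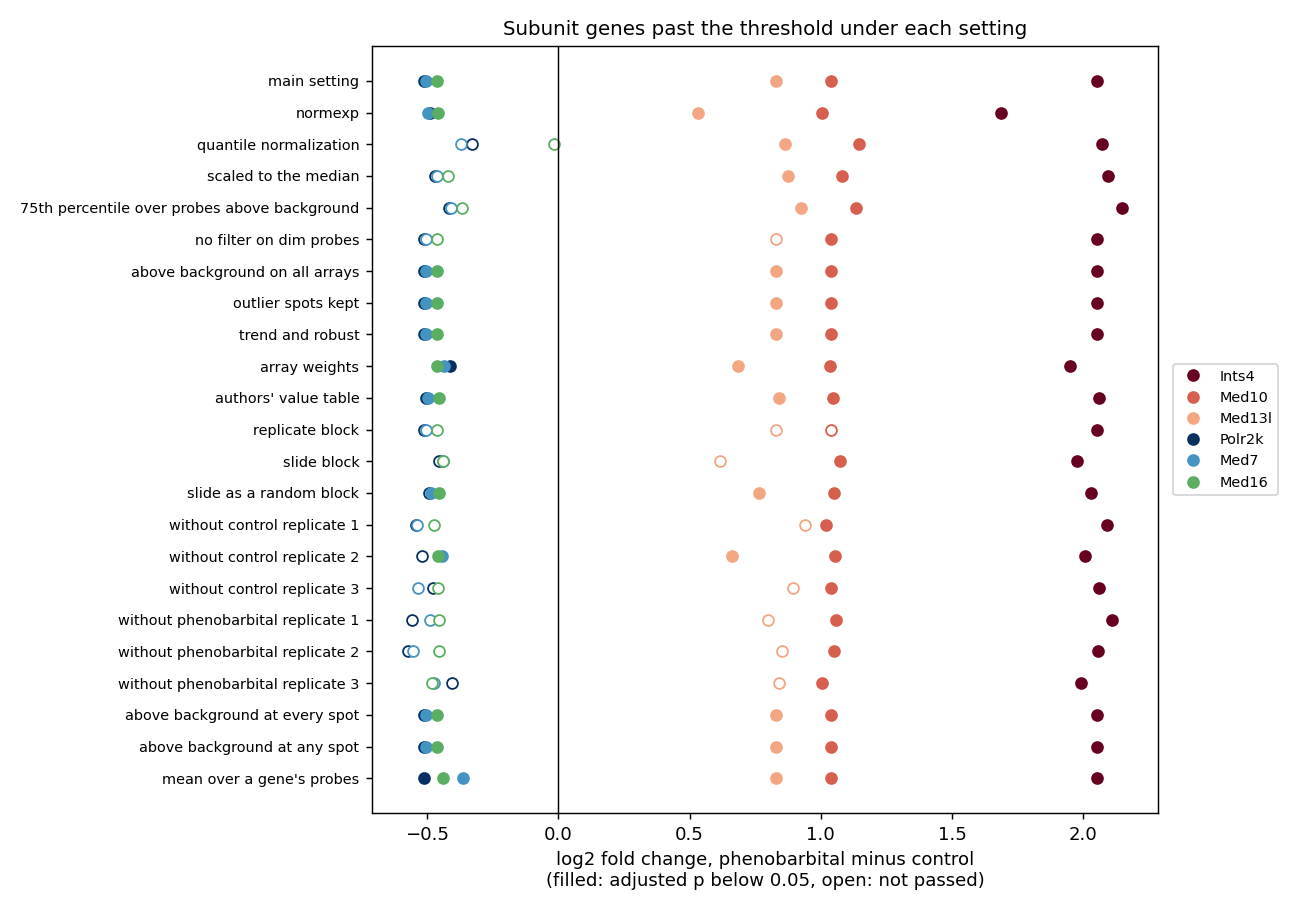
Log2 fold change (x axis) of the 6 genes that passed, under the main setting and 22 others (rows). Filled points passed the adjusted p threshold of 0.05; Ints4 is filled in every row, Med10 in all but the replicate block, and Med16, Med7 and Polr2k are open under the 3 other scalings between arrays. The slide block leaves 1 control array, so its row is not read as a test.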

How the data were processed

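The 6 arrays were quantified by the authors with Agilent Feature Extraction 10.7.3.1, per the file headers (10.7 in the submitters' processing notes). Their deposited spot values are linear intensity, with the background subtracted within each array and no scaling between arrays. The authors' deposited value table holds log2 values of the same arrays; the constant each probe is centred on stays unknown, and its column medians were -0.02, -0.09 and -0.08 in phenobarbital and 0.08, 0.10 and 0.09 in control replicates 1 to 3.

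From the 59305 non-control spots per array (98 to 198 outlier spots left out, none saturated), log2 processed signals were scaled to the 75th percentile and averaged per probe. A probe counted as well above background where at least 50% of its spots were. This rule was taken after the data were seen, because of several tried it gave the same number of kept probes as earlier processing of these arrays. It left 34673 of 55681 probes. Symbols came from a RefSeq table (GRCm38.p6). The fit used lmFit and eBayes (limma 3.58.1, R 4.3.3), two-sided, without covariates, and was tested on simulated data.

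Members, lists and tests were chosen with earlier results of these data known. Named were the members past the threshold, the 2 highest and 2 lowest of each complex, those with disagreeing probes, and Med1, Med12, Med13, Med14 and Ints11. Of each partner list up to 4 past the threshold, or the 2 brightest, were named. One gene that this rule selects is not reported here. The test between probes of a gene, the gap of 0.5, the promoter windows and the motifs were added after the data were seen. Precision is limited by the number of arrays. The alternatives varied background correction, scaling, filters, outlier spots, probe choice, variance prior, array weights, the source of the values, slide and replicate blocks, and each array left out. Normexp was run on median spot signals, since the files hold no means.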

Additional observations from a re-analysis of the deposited data

How the results depend on the processing

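No member or partner gene that passed changed sign under any alternative. The log2 fold change of Ints4 ran from 1.69 to 2.15 over the 22 alternatives. The number of Mediator genes changed was 4. It was 7 with normexp, and 2 with quantile normalization, with scaling to the median and with the 75th percentile over probes above background. It was 1 without a filter on dim probes, 8 with a trended robust prior, 10 with array weights and 9 with every probe tested. Integrator had 1, and 2 with the trended prior and with array weights. RNA polymerase II had 1. This count was 2 with normexp, with probes averaged per gene and with every probe tested, 4 with the trended prior and 5 with array weights. It was 0 with the 3 other scalings, without a filter and with slide as a random block. Leaving out 1 array at a time gave 1 to 4 for Mediator, 1 to 2 for Integrator and 0 to 1 for RNA polymerase II, while calls over all genes ran from 880 to 4636 (4370 with all arrays). With the replicate number as a block, 0 Mediator, 1 Integrator and 0 RNA polymerase II genes passed, and Med10 had an adjusted p of 0.052 in limma. Deviations of same-numbered arrays from their group means correlated at 0.08, -0.16 and -0.35. With 3 arrays per group these values cannot show whether same-numbered arrays were paired, and the labels do not say. Of all calls 36.2% were rises, against 53.5% with quantile normalization, 57.4% with the median, 59.5% with the 75th percentile over probes above background and 23.5% with normexp. The all-gene median was -0.17, and -0.07, -0.12, -0.07 and -0.21 under those 4. The median of RNA polymerase II was 0.03 with quantile normalization, and that of Integrator 0.04 with the 75th percentile over probes above background. Counting a probe as above background at any or at every spot gave 4368 calls each. Apart from the slide block, the dimmer-minus-brightest differences of Polr2e, Med27 and Med29 passed under every alternative run. With slide as a fixed block the control arm is 1 array, and the spread comes from the phenobarbital arrays, so no counts are given for it. The causes of these changes were not tested. Signal over background limits Ints6 and Med12l.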
